A study of Mus musculus with 18 samples.

Results

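The Nfi genes Nfia, Nfib, Nfic and Nfix encode the nuclear factor I transcription factors, and the circular RNAs backspliced from them were followed together with their mRNAs in NIH/3T3 cells with and without Exportin 4 (XPO4). A circRNA was taken as a member when both of its ends lay inside the span of one of the 4 genes, and it had to be listed by the authors in at least 1 fraction, so the circles were in part selected on their reads, those that put them in a list, and their presence is a description. Of 16171 circRNAs listed in the series, 17 met the rule. Nfix gave 8, Nfib 6, Nfia 3 and Nfic none. The circRNAs were counted in 12 libraries, 2 for each genotype in nuclear, cytoplasmic and whole-cell RNA, and the mRNAs in 6 libraries, 3 for each genotype. All samples were untreated NIH/3T3 cells from ATCC, a mouse embryonic fibroblast line. The wild type (WT) cells carried intact Xpo4, and the XPO4 knockout (KO) cells were 1 line made from them by CRISPR-Cas9 with both gene copies edited alike, so an effect of XPO4 loss and a property of that line cannot be told apart. Nothing in the labels says whether replicates were separate cultures, and p-values then measure only the spread between these libraries, which may be technical.

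Nuclear factor I proteins bind DNA as homo- or heterodimers at palindromic sites and can activate or repress transcription, and they act in the development of lung, brain, muscle and teeth as well as in fibroblasts. Each protein has an N-terminal DNA-binding and dimerization region, which is shared closely among the members, and a C-terminal regulatory region that is more variable and is altered by alternative splicing. A circRNA forms when the end of an exon is joined backward to the start of the same or an earlier exon, and reads that cross this backsplice junction are what the circRNA libraries count.

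The junctions of the circles that the results turn on are given first, since the 40 bases around the backsplice are what tells these circles apart from linear mRNA and from each other. Each is written 5′ to 3′ on the strand of its gene, with the last 20 bases of the circle in lower case and its first 20 bases, to which they are joined, in capitals. The sequences were read from the GRCm38 mouse genome (RefSeq).
circNfix exon 2, chr8:84771784-84772315, minus strand: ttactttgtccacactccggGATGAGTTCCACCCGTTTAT
circNfix exons 2 to 8, chr8:84721643-84772315, minus strand: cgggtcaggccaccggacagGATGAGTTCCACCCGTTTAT
circNfib exon 2, chr4:82498238-82498769, minus strand: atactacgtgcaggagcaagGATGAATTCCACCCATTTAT
circNfia exons 8 to 9, chr4:98063013-98065446, plus strand: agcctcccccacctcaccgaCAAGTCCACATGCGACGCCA
circNfia exons 3 to 6, chr4:97956374-98020954, plus strand: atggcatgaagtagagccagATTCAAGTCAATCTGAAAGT
circNfib of intron 2, chr4:82392871-82393106, minus strand: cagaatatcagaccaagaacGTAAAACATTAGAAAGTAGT
The first pair shares its capitals, because both circles begin with exon 2 of Nfix. Their junctions differ in the exon that is joined back to it. The junctions of circNfix exon 2 and circNfib exon 2 differed at 12 of 40 positions.

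Exon 2 is the exon that the most abundant circle of the family consists of, and it has the same length, 532 bases, in all 4 genes. A stretch from position 201 to 320 of exon 2 is shown for each gene, with the bases that differ from Nfix in capitals.
Nfix, chr8:84771996-84772115: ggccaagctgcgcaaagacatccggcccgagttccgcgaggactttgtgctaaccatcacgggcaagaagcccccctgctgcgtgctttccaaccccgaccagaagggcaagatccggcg
Nfic, chr10:81420479-81420598: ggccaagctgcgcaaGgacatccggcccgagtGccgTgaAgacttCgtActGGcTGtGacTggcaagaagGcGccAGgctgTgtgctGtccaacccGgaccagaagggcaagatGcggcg
Nfib, chr4:82498450-82498569: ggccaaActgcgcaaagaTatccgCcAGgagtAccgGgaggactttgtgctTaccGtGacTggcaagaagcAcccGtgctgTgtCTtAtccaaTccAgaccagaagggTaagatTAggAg
Nfia, chr4:97783282-97783401: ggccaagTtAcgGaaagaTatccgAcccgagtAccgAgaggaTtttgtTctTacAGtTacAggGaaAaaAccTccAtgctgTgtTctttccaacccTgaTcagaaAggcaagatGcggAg
Within this stretch Nfic differed from Nfix at 20 positions, Nfib at 23 and Nfia at 26. Over the whole exon the identity to Nfix was 82.0% for Nfic, 78.6% for Nfib and 78.6% for Nfia, and 351 of the 532 positions were the same in all 4 genes. The exon is coding in each, and in each it is preceded by AG and followed by GT in the genome. A circle of exon 2 alone was listed for Nfix, with 6545 reads over the 12 libraries, and for Nfib, with 23 reads, and none was listed for Nfia or Nfic.

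The deposited circRNA lists were short in the nucleus and long elsewhere, which sets what can be seen of the family. The nuclear libraries held 2189 to 4383 junction reads and the other 8 circRNA libraries 50341 to 81941. The 3 lists held 1166 nuclear, 9648 cytoplasmic and 10700 whole-cell circRNAs, and each listed circRNA was present in at least 2 of the 4 libraries of its fraction. In the cytoplasmic and whole-cell lists every circRNA began and ended at an annotated exon edge, which held for only 677 in the nucleus, so a circle off the exon edges could appear in the nuclear list only. The mRNA libraries held 16974062 to 22057323 reads on genes. Xpo4 itself had 657, 614 and 685 reads in the libraries labelled WT and 712, 504 and 687 in those labelled KO, which overlap and do not check the labels. The heading inside each deposited mRNA table named the other genotype than its sample label, and the labels are followed here, so every mRNA direction below would turn round if the headings were right. The 12 fibroblast markers, such as Col1a1 and Vim, summed to 23100 to 24700 counts per 1000000 reads (CPM) in WT and 20800 to 23500 in KO libraries. The sums were 10.5 to 12.8 and 4.77 to 6.03 for 4 leukocyte markers, 5.22 to 5.89 and 1.0 to 1.68 for 4 epithelial markers, 0.503 to 0.768 and 2.3 to 3.63 for 3 neural markers, and at most 1.28 in any library for the 3 lists of endothelial, erythroid and skeletal muscle markers. Cd3e, Hbb-bs, Epcam, Rbfox3 and Myod1 had no read in any of the 6. The part of the shifts in these marker sums in the results below was not tested.

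The 17 circles had a common build. In 15 of them both ends lay on annotated exon edges, and in 13 of these a single transcript held both ends. With the annotated exons between their ends, those 13 had a spliced length of 240 to 1227 bases with a median of 396. The GC content was 46.9% to 61.2%, and these exons were coding throughout. Junction reads do not show which of these exons a circle holds, so the values are inferred. The spliced length was a multiple of 3 in 9 of the 13, but not in the circles of exon 2 alone, which were the only 2 made of 1 exon. All 17 had AG before and GT after the circle on the strand of the gene, the splice signals that the circRNA caller requires. Ends were reused within each gene. For Nfib 3 circles ended with exon 6, and for Nfix 3 circles ended with exon 8 and 3 began with exon 3. Circles that share an end are not independent measurements of their gene. The remaining circles of Nfix joined exon edges that no single transcript holds (chr8:84707660-84727967 and chr8:84707660-84713857, the longer and the shorter mixed-edge circle) or had 1 end off the exon edges (chr8:84771784-84779275). The sixth circle of Nfib lay wholly in intron 2. Except for circNfix exon 2, every circle was rare, with 7 to 81 reads summed over the 12 libraries, and the 16 others together had 396 reads against 6545 for circNfix exon 2, which thus made up 94.3% of the family's 6941 junction reads.

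**Figure D1:**
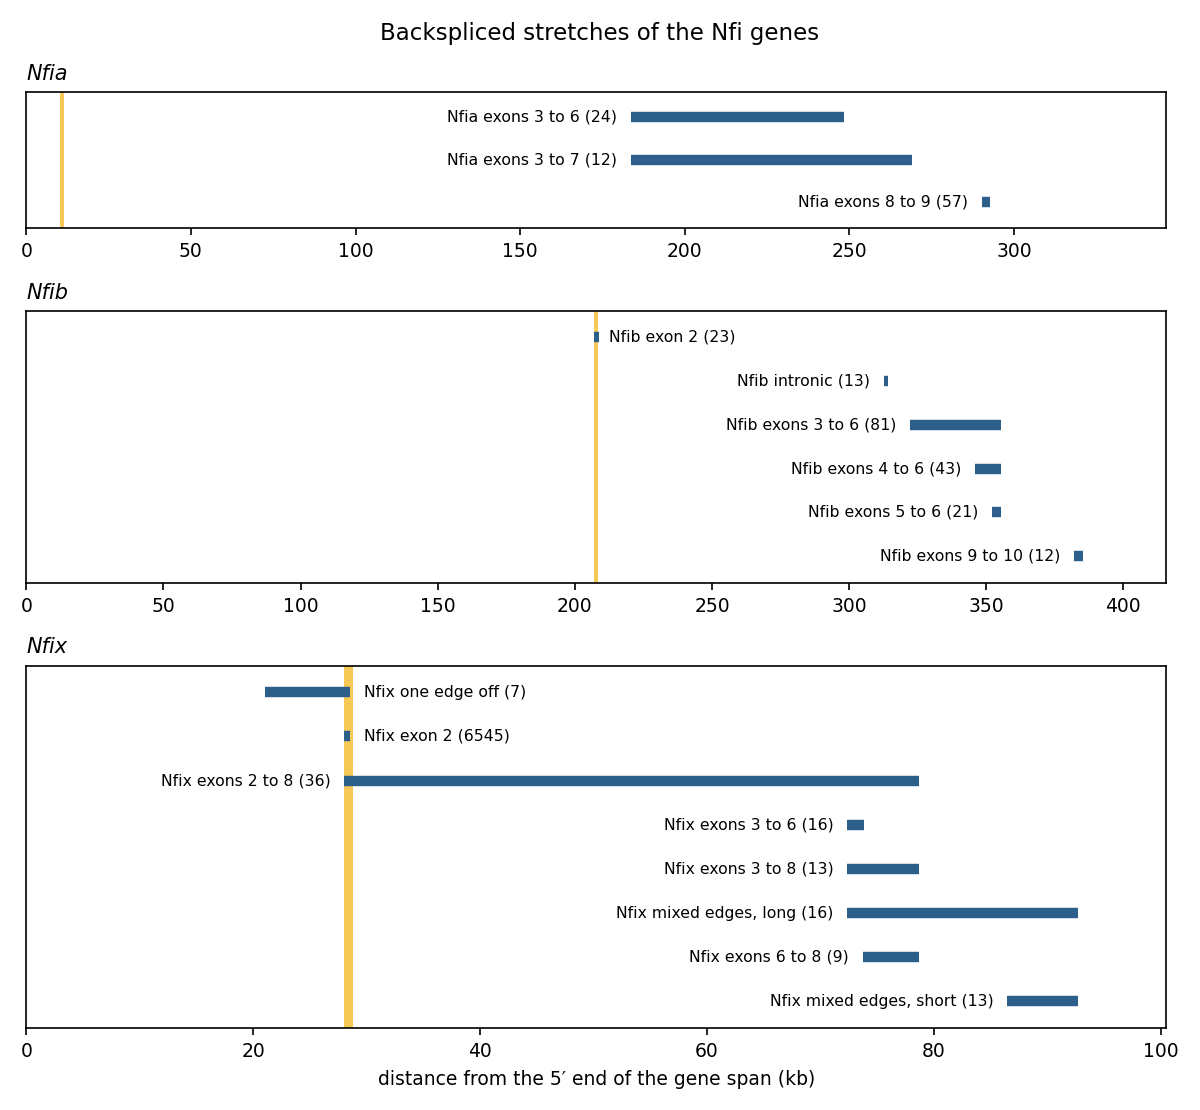
Position of the 17 circles in the spans of Nfia, Nfib and Nfix, in kb from the 5′ end of each gene, with the reads over the 12 circRNA libraries in parentheses. Blue bars run from the first to the last base of a circle, the yellow band marks exon 2, and both are drawn at a minimum width so that short ones can be seen. Mixed edges are circles whose ends no single transcript holds. The circle of Nfix exon 2 has 6545 reads and the others 7 to 81.

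circNfix exon 2 was the circle on which the family's totals turned, and its level in the cytoplasmic and in the whole-cell libraries differed by genotype in opposite ways. In the cytoplasm it had 1837 and 1871 WT reads against 682 and 685 in KO. The groups did not overlap, and the KO libraries were the lower ones. As a share of all junction reads of a library this was 2.36% (95% Wilson interval 2.26 to 2.47) and 2.28% (2.18 to 2.39) in WT, and 1.35% (1.25 to 1.45) and 1.08% (1.0 to 1.17) in KO. It was the most abundant circRNA of both WT cytoplasmic libraries, and ranked 1 and 2 in the KO ones. All intervals and ratios here cover counting error only. The edgeR quasi-likelihood test, fitted over all 8917 cytoplasmic circRNAs with 10 or more reads, gave a log2 fold change of KO over WT of -0.89 ± 1.03 (SE) with a Benjamini-Hochberg adjusted p of 0.468, so the difference did not pass the threshold of 0.05. In bulk RNA a change in the number of cells with the circle and in its amount per cell cannot be told apart.

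In the whole-cell libraries circNfix exon 2 had 2 and 0 WT reads against 681 and 677 in KO. It was thus almost unread in WT, where it ranked 6989 of 9902 listed circRNAs in 1 library and was not listed in the other, and it was the most abundant circRNA in both KO libraries. Its share was 0.00346% (0.000949 to 0.0126) in the first WT library, at most 0.00697% by the same interval in the second, and 1.17% (1.09 to 1.26) and 1.34% (1.25 to 1.45) in KO. The ratio of KO to WT CPM was 706 with an exact 95% interval of 195 to 5840, since the WT side rests on 2 reads. The edgeR log2 fold change was 9.28 ± 1.1 (SE) with an adjusted p of 0.058, in a fit that called none of 8903 circRNAs (0.0%) at an adjusted p under 0.05, 3405 of them (38.2%) at an unadjusted p under 0.05, and for which DESeq2 called 7. The adjusted p of circNfix exon 2 was 1.22e-12 when libraries were scaled by their total of circRNA reads, 4.86e-12 with DESeq2 and 0.00125 without WT replicate 2, but 0.151 without any scaling, 0.0796 without the filter on low counts, 0.0888 without WT replicate 1, and 0.21 and 0.289 without KO replicate 1 or 2. The log2 fold change was 12.34 without WT replicate 1 and 8.04 without WT replicate 2.

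The contrast between the fractions was itself tested, a test added after the values had been seen. In a model of the 8 cytoplasmic and whole-cell libraries with genotype, fraction and their interaction, the genotype effect on circNfix exon 2 was 10.23 ± 2.29 (SE) higher on the log2 scale in the whole cell than in the cytoplasm (edgeR adjusted p = 0.0049). By size this was the second largest of 13729 differences, of which 7.41% passed the threshold. The adjusted p rose to 0.134 and 0.0966 without KO whole-cell replicate 1 or 2, where no circRNA passed, and to 0.0938 without WT whole-cell replicate 2.

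The absence from WT whole-cell RNA of a circle abundant in WT cytoplasm was rare in the series. Of 42 circRNAs with 200 or more reads summed over the WT cytoplasmic libraries, 3 had 3 or fewer summed over the WT whole-cell ones, and the others had 20 or more, with a median of 181. These limits were set after the values had been seen. Beside circNfix exon 2 these included a single-exon circle of Pvt1, a long noncoding RNA gene, at chr15:62107148-62107465, with 834 and 838 WT reads against 436 and 1282 in KO cytoplasm, and with 1 and 2 in WT and 566 and 569 in KO whole-cell RNA. It shared with circNfix exon 2 the order of the whole-cell groups.

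In the nucleus circNfix exon 2 had 5 and 43 WT reads against 14 and 48 in KO. The groups overlapped, and in each genotype the second library held more reads than the first. The shares were 0.228% (0.0976 to 0.534) and 1.63% (1.21 to 2.19) in WT and 0.374% (0.223 to 0.627) and 1.1% (0.827 to 1.45) in KO. It was the most abundant circRNA in the second library of both genotypes. The edgeR log2 fold change of -0.53 ± 1.39 (SE, adjusted p = 0.825) was within the spread between replicates, and its sign turned to 1.22 without WT nuclear replicate 2. Divided by the mean cytoplasmic level in CPM, the nuclear level of circNfix exon 2 was 0.4 in WT and 0.607 in KO. This is a ratio of shares of the junction reads listed in each fraction, not of amounts of the circle. With the lower and the higher nuclear library this ratio ran from 0.0983 to 0.703 in WT and from 0.308 to 0.905 in KO, so the ranges overlapped. The test of the difference in nuclear to cytoplasmic (Nuc/Cyto) ratio gave 0.72 ± 1.9 (SE) on the log2 scale with an unadjusted p of 0.714, and in that fit none of 9266 circRNAs passed an adjusted p of 0.05 (0.0%), 115 (1.24%) had an unadjusted p under 0.05, and DESeq2 called 1. No other family member was listed in both of these fractions, so no other ratio is given. On simulated data the Nuc/Cyto fit recovered 2% of 200 planted 8-fold changes and gave the right sign for 60.5% of them. The circles given a change were not required to have nuclear reads, and an 8-fold change of 0 reads is no change. This recovery therefore does not measure the power for circles read in the nucleus. For circNfix exon 2 the limit was the spread between its nuclear replicates, with an SE of 1.9 around a difference of 0.72. Its value ran from -0.37 without KO nuclear replicate 2 to 2.87 without WT nuclear replicate 2. The lack of a call therefore cannot decide whether the Nuc/Cyto ratio of circNfix exon 2 changed. For other circles the power was not measured, so the lack of calls cannot decide it there either.

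**Figure D2:**
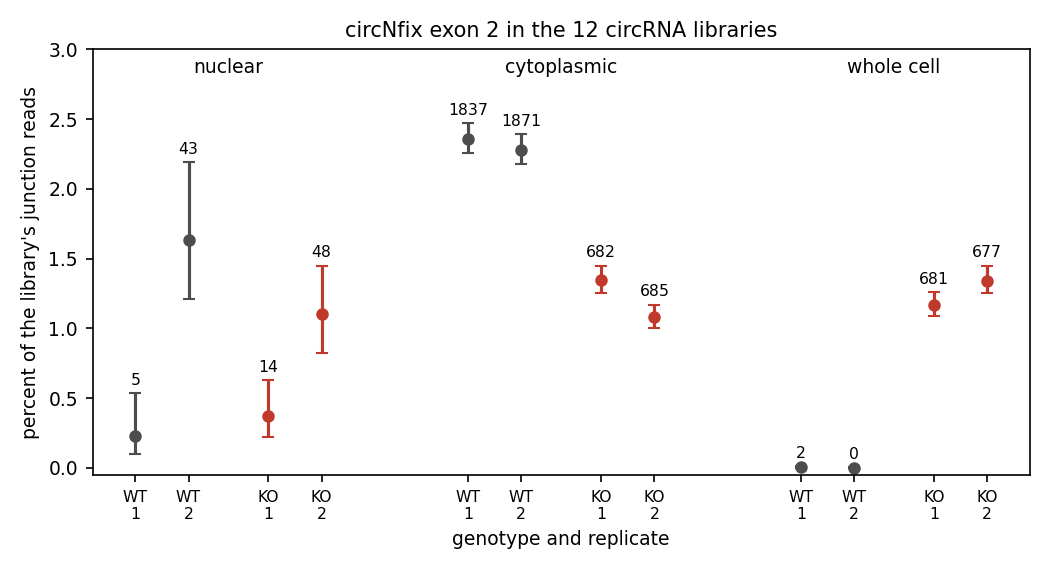
Share of each library's junction reads that crossed the junction of circNfix exon 2, in percent, for the 12 circRNA libraries (gray, WT; red, KO), with 95% Wilson intervals and the read count above each point. In the cytoplasm both WT libraries lie above both KO libraries, in the whole cell both lie near 0 while KO reaches 1.17% and 1.34%, and in the nucleus the second replicate is higher in both genotypes.

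Among the circles of Nfia, which encodes nuclear factor I A, the one of exons 8 to 9 behaved in the reverse way. WT cytoplasm gave 0 and 1 reads of it against 22 and 19 in KO cytoplasm, and 7 and 6 in WT and 1 and 1 in KO whole-cell RNA. The groups did not overlap in either fraction, KO being higher in the cytoplasm and lower in the whole cell. The ratio of KO to WT CPM was 57.5 (exact 95% interval 9.75 to 2320) in the cytoplasm and 0.16 (0.0175 to 0.707) in the whole cell. The cytoplasmic rise passed the test (log2 fold change 5.55, and 4.55 and 7.39 without WT cytoplasmic replicate 1 or 2, edgeR adjusted p = 0.000138) and the whole-cell value did not (adjusted p = 0.058), although it did when scaled by the total of circRNA reads (0.0272). The interaction was -8 on the log2 scale with an SE of 1.11 and an adjusted p of 0.00023, and it too was lost without KO whole-cell replicate 1 or 2 (0.134 and 0.0966).

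The other circles of Nfia begin at exon 3. That of exons 3 to 6 had 7 and 6 WT reads against 2 and 0 in KO cytoplasm, and 1 and 1 in WT and 2 and 5 in KO whole-cell RNA. In the cytoplasm it fell by 2.05 on the log2 scale (SE 0.82, edgeR adjusted p = 0.0387), a call that was lost without KO cytoplasmic replicate 2 (-0.6, adjusted p = 0.672) and without KO cytoplasmic replicate 1 (-5.48, 0.0521). Its interaction of 3.83 ± 1.28 (SE) had an adjusted p of 0.0677. The circle of exons 3 to 7 was listed in the whole cell alone, with 5 and 5 WT reads against 1 and 1 in KO (edgeR adjusted p = 0.0821). Thus within Nfia the circle of exons 3 to 6 fell and that of exons 8 to 9 rose in KO cytoplasm.

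Nfib, which encodes nuclear factor I B, gave 6 circles, of which 2 passed the test. The circle of exons 3 to 6, its most abundant, had 7 and 8 WT reads against 11 and 8 in KO cytoplasm, and 17 and 12 in WT and 7 and 11 in KO whole-cell RNA. Neither difference passed (edgeR adjusted p = 0.119 and 0.371). The circle of exons 4 to 6 had 10 and 11 WT reads against 4 and 5 in KO cytoplasm, and 2 and 2 in WT and 4 and 5 in KO whole-cell RNA (adjusted p = 0.288 and 0.256). The groups did not overlap in either fraction, but neither difference passed the threshold. The circle of exon 2 had 5 and 5 WT reads against 2 and 2 in KO cytoplasm (adjusted p = 0.415), and 3 and 5 in WT and 0 and 1 in KO whole-cell RNA, where its 9 reads were too few for the fit.

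Of the circles of Nfib listed in the cytoplasm alone, that of exons 5 to 6 had 2 and 3 WT reads against 9 and 7 in KO and rose by 2.16 ± 0.57 (SE, log2, edgeR adjusted p = 0.00392). That of exons 9 to 10 had 1 and 2 WT reads against 5 and 4 in KO and rose by 2.03 ± 0.71 (adjusted p = 0.032). Both calls were lost when either WT library was left out, the adjusted p then being 0.062 and 0.0876 for exons 5 to 6 and 0.192 and 0.141 for exons 9 to 10. The circle inside intron 2, listed in the nucleus alone, had 1 and 0 WT reads against 5 and 7 in KO, a ratio of 7.12 in CPM with an exact 95% interval of 1.05 to 305 (edgeR adjusted p = 0.121). Of the nuclear circRNAs tested 10.1% passed, and neither of the 2 family members tested did.

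The rarer circles of Nfix, which encodes nuclear factor I X, were spread over the fractions. Both mixed-edge circles were listed in the cytoplasm alone. The longer mixed-edge circle had 0 and 2 WT reads against 7 and 7 in KO and rose by 3.17 ± 0.74 (SE, log2, edgeR adjusted p = 0.00174). The call was lost with DESeq2 (0.0569) and without any scaling (0.0876), and the value was 2.1 and 5.84 without WT cytoplasmic replicate 1 or 2. The shorter one, which uses the same lower end, had 5 and 7 WT reads against 1 and 0 in KO and fell by 2.81 (SE 0.92, adjusted p = 0.017). That call was lost without KO cytoplasmic replicate 1 (-5.36, adjusted p = 0.0625) or 2 (-1.44, 0.389) and without any scaling (0.0608). Both circles thus shared an end and moved in opposite directions.

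The circle of exons 2 to 8, which begins at the same exon as circNfix exon 2, had no difference past the test. It had 1 and 3 WT reads against 3 and 5 in KO cytoplasm, and 4 and 7 in WT and 10 and 3 in KO whole-cell RNA. The adjusted p was 0.108 in the cytoplasm and 0.761 in the whole cell, and its interaction of -1.14 ± 0.95 (SE) did not pass. The circle of exons 3 to 6 had 6 and 6 WT reads against 1 and 3 in KO cytoplasm (adjusted p = 0.245). In the whole cell that of exons 3 to 8 had 3 and 4 in WT and 3 and 3 in KO (adjusted p = 0.883), and that of exons 6 to 8 had 1 and 2 in WT and 3 and 3 in KO. The circle with 1 end off the exon edges had 0 and 1 WT reads against 1 and 5 in KO nuclei. These last 2 circles had too few reads for the fit.

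Counted over the family, 6 of the 12 members tested in the cytoplasm passed the test, 4 higher and 2 lower in KO, against 53.5% of all 8917 circRNAs tested there (30.0% higher and 23.5% lower), a share close to that of the members. Their median log2 fold change was 0.1, against -0.25 over all. With DESeq2, or without any scaling of the libraries, 1 of the 12 passed. Read counts, not scaled for depth, did not overlap between the genotypes for 10 of the 12, against 82.4% of all. The WT cytoplasmic libraries held 77818 and 81941 junction reads and the KO ones 50629 and 63335, so this count mixes depth with genotype. In the whole cell none of the 7 members tested passed, and counts did not overlap for 5 of them, against 65.4% of all. A circle needed 10 reads to be tested, so one read in a single genotype had to differ, and these counts support nothing by themselves. Of 5 members tested in both fractions, 4 had fold changes of opposite sign in the cytoplasm and the whole cell, against 48.5% of 4125 circRNAs.

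**Figure D3:**
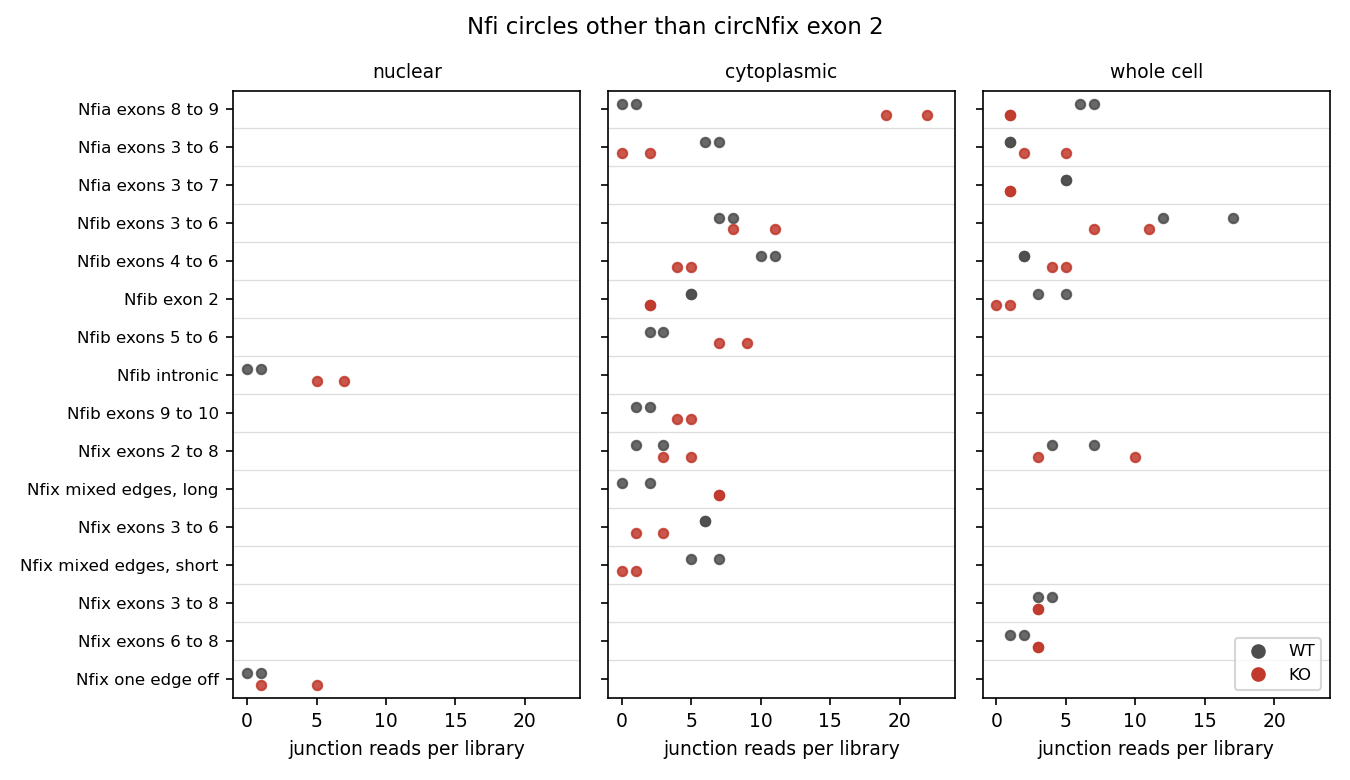
Junction reads per library of the 16 circles other than circNfix exon 2 (gray, WT; red, KO; 2 libraries each), for the fractions in which a circle was listed. No circle passes 22 reads in a library. Nfia exons 8 to 9 stands at 19 and 22 in KO cytoplasm and at 1 in KO whole-cell RNA.

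**Figure D4:**
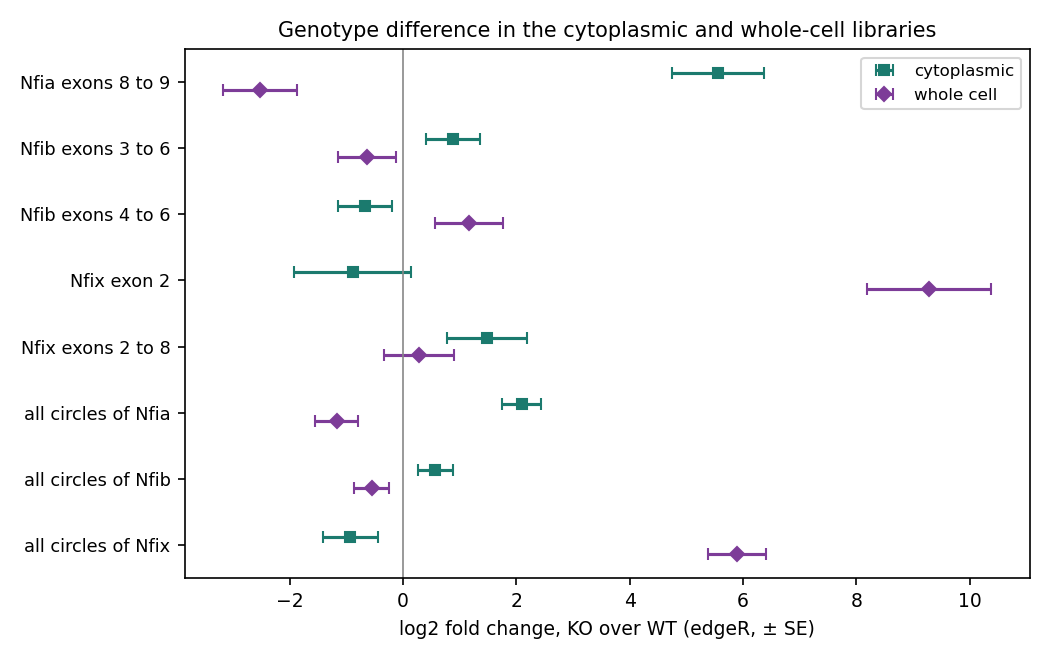
Log2 fold change of KO over WT with its SE from edgeR for the 5 circles tested in both fractions and for the junction reads summed over all circles of Nfia, Nfib and Nfix (squares, cytoplasmic; diamonds, whole cell). Nfia exons 8 to 9 lies at 5.55 and -2.52, and Nfix exon 2 at -0.89 and 9.28.

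Summed over the circles of each gene, Nfia rose in the cytoplasm from 7 and 7 reads in WT to 24 and 19 in KO, by 2.09 ± 0.35 (SE, log2, edgeR adjusted p = 0.00202), where 45.8% of 3774 host genes passed. The adjusted p was 0.0606 with DESeq2. In the whole cell it had 13 and 12 WT reads against 4 and 7 in KO (adjusted p = 0.0845). Nfib had 25 and 29 WT reads against 31 and 26 in KO cytoplasm, which overlap, and 22 and 19 in WT and 11 and 17 in KO whole-cell RNA, and neither difference passed (adjusted p = 0.153 and 0.263). Nfix had 1849 and 1889 WT reads against 694 and 700 in KO cytoplasm (adjusted p = 0.139), and in the whole cell it rose from 10 and 13 to 697 and 686, by 5.89 ± 0.51 (adjusted p = 0.00484), where 8.0% of 3701 host genes passed. The adjusted p was 0.122 without any scaling. In the nucleus 12.4% of 564 host genes passed, and neither Nfib nor Nfix did (adjusted p = 0.118 and 0.689). By these sums Nfix was the first of 3887 host genes in WT cytoplasm, the second of 3867 in KO cytoplasm, number 1299 of 4052 in WT whole-cell RNA and the first of 4038 in KO.

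As a share of all junction reads, the family held 2.38% ± 0.048 (SD, n = 2) in WT and 1.33% ± 0.214 in KO cytoplasm, and 0.0789% ± 0.00139 in WT and 1.32% ± 0.132 in KO whole-cell RNA. The groups did not overlap in either fraction, and both two-sided exact permutation tests gave p = 0.333, the smallest that 2 libraries against 2 allow. In the nucleus it held 0.972% ± 0.987 in WT and 0.952% ± 0.59 in KO (exact p = 1). Without circNfix exon 2 the sums of the other members were 44 and 54 WT reads against 67 and 60 in KO cytoplasm, and 43 and 44 in WT and 31 and 33 in KO whole-cell RNA, so that the order of the groups was the reverse of the family's in both fractions.

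The mRNAs of the 4 genes differed more in level between genes than by genotype. In RPKM (reads per 1000000 reads per kb of exon, computed here from the deposited counts), the WT libraries had means of 55.8 ± 1.83 (SD, n = 3) for Nfix, 24.6 ± 0.241 for Nfic, 11 ± 0.337 for Nfib and 1.2 ± 0.152 for Nfia. The KO libraries had 57.3 ± 4.5, 33.3 ± 2.8, 12.6 ± 0.919 and 2.21 ± 0.0155 in the same order. The order of the genes was the same in all 6 libraries, and no neighbours in it overlapped. Nfic, without a listed circle, thus had more mRNA per length than Nfib with 6 and Nfia with 3.

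Nfia had 1.02, 1.28 and 1.28 RPKM in WT and 2.22, 2.2 and 2.23 in KO. Every KO library was above every WT library, and the gene rose by 0.89 ± 0.1 (SE, log2, edgeR adjusted p = 8.42e-06), a fold of 1.85. Nfic had 24.8, 24.4 and 24.7 RPKM in WT and 33.2, 30.5 and 36.1 in KO. It too did not overlap, and rose by 0.43 ± 0.06 (adjusted p = 7.45e-05). Nfib had 11.4, 11 and 10.7 RPKM in WT and 13, 11.6 and 13.3 in KO and rose by 0.19 ± 0.06 (adjusted p = 0.019), a small shift whose call was lost without KO replicate 1 (0.0632) or 3 (0.0573) or WT replicate 2 (0.0674) or 3 (0.0858). Nfix had 57.8, 54.2 and 55.4 RPKM in WT and 57.4, 52.7 and 61.7 in KO. These overlapped, and its difference of 0.04 ± 0.06 did not pass (adjusted p = 0.649). So 3 of the 4 passed, all higher in KO, against 48.7% of 14688 genes tested and 25.1% higher in KO. Exons of Nfia and Nfic overlap annotated exons of E130114P18Rik and Gm16104, and some of Nfix those of G430095P16Rik and of 1 more gene, which was not analysed here, all on the other strand, and counting was not by strand. Reads assigned to the 3 named genes were few, 0 to 4, 0 to 5 and 16 to 40 per library.

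**Figure D5:**
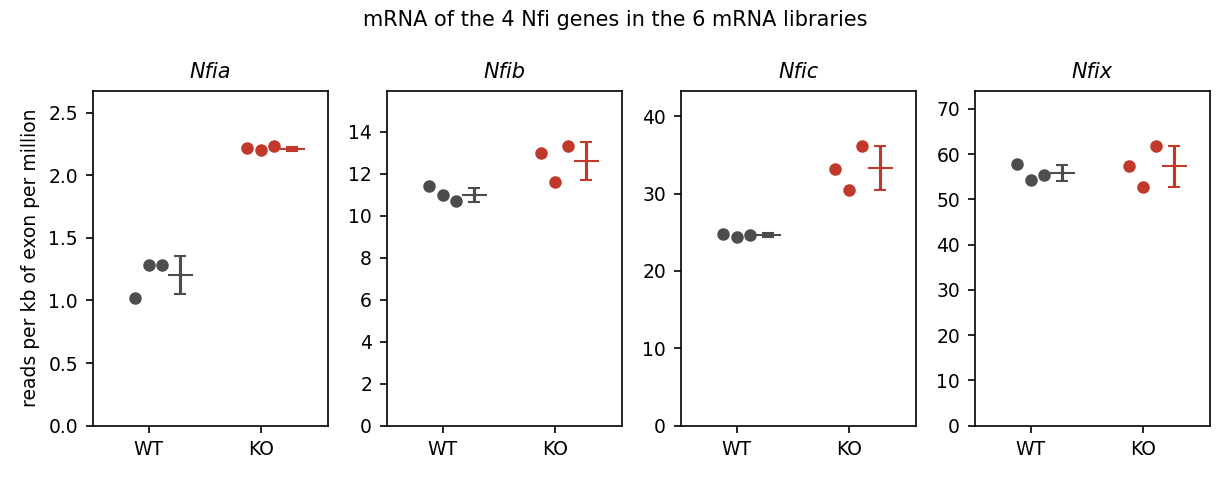
RPKM of the 4 Nfi genes in the 3 WT (gray) and 3 KO (red) mRNA libraries, with the mean and SD beside them; each axis starts at 0. Nfia, Nfib and Nfic lie higher in every KO library than in any WT library, and Nfix overlaps.

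Set beside the circles, Nfix mRNA was level while reads of its exon 2 circle went from 2 to 1358 over the 2 WT and 2 KO whole-cell libraries and from 3708 to 1367 in the cytoplasm. By the labels Nfia mRNA was higher in KO, as was the sum of its circles in the cytoplasm, whereas the whole-cell sum was lower without passing the test. The cytoplasmic rise came from the circle of exons 8 to 9 alone, with 0 and 1 WT reads against 22 and 19 in KO. That of exons 3 to 6 was lower in KO, with 7 and 6 WT reads against 2 and 0. With the genotypes of the mRNA table headings, Nfia mRNA would instead be lower in KO. The circRNA and mRNA libraries were prepared separately, so these values are placed side by side without a test.

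Genes described elsewhere as partners or targets of nuclear factor I moved both ways. Of 20 listed, 12 were expressed enough to be tested. In KO 5 were higher, 6 lower and 1, the transcription factor gene Nfatc4, did not pass, where 48.7% of all genes tested passed, with a median log2 fold change of -0.1 against -0.0029 over all genes. Those higher were Fabp4, a fatty acid carrier of adipocytes (2.72 ± 0.27, SE, log2), Apcdd1, a Wnt inhibitor (1.28 ± 0.13), the astrocyte filament gene Gfap (1.07 ± 0.32), Zcchc24 (0.65 ± 0.06) and the collagen gene Col1a2 (0.16 ± 0.05). Those lower were the transcription factor genes Klf4 (-1.18 ± 0.06) and Sox9 (-0.33 ± 0.05), the metalloproteinase inhibitor gene Timp1 (-0.37 ± 0.07), the histone methyltransferase gene Ezh2 (-0.27 ± 0.06), the cell cycle inhibitor gene Cdkn1a (-0.22 ± 0.06) and the corepressor gene Ski (-0.16 ± 0.06). Fabp4 had 10, 10 and 21 WT reads against 80, 81 and 72 in KO, and Gfap 10, 15 and 16 in WT against 22, 28 and 24 in KO, so the values of both rest on low counts. Klf4 had 1566, 1598 and 1599 WT reads against 610, 615 and 583 in KO. Mmd2, Fabp7, Mstn and Cebpa had no read in any library, and Sp7, Dspp, Pparg and Cdh1 too few to be tested.

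By likeness of profile over the 6 mRNA libraries, Nfia was closest to Nkx2-5 (Pearson r = 0.999) and Spcs3 (0.998), Nfib to Etl4 (0.999) and Dnm3os (0.998), Nfic to Pcdhgc3 (1.0) and Gm6055 (0.999), and Nfix to Cast (0.992) and Prpf38b (0.983), among 14688 genes. Such values arise readily when so many genes are compared over so few libraries that also fall into 2 genotypes. Over the 12 circRNA libraries, the summed circles of Nfix were most like those of Pvt1 (0.83) and Gli3 (0.711), and those of Nfib most like those of Arfgap3 (0.99), among 1363 host genes with 100 or more reads. The libraries share fraction and depth, which alone order many host genes.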

How the data were processed

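Circular RNA was sequenced from RNase R-treated nuclear, cytoplasmic and whole-cell RNA and mRNA from whole cells. The authors found circRNAs with find_circ and deposited counts of junction reads per circRNA, and deposited read counts per gene from HISAT2 alignments to mm10 and featureCounts, without strand. No totals of sequenced reads are in these tables, so depth is the sum of deposited counts. Starts in the lists count from 0 and 1 was added.

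Circles absent from a list were entered as 0. Each whole table was fitted with edgeR 4.0.16 (quasi-likelihood, TMM, 10 reads or more in a fit for circRNAs, filterByExpr for mRNA), and p-values were adjusted over all features by Benjamini-Hochberg at 0.05. Replicate numbers gave no sign of paired samples (correlations of deviations -0.089 to 0.062), so no block was used in the main fits. Shares were compared by exact permutation. DESeq2 1.42.0, other scalings, no filter, the block and leaving out each library were alternatives, and scripts were tested on simulated data. Named circles were the 3 most read per gene, those in nuclear lists and those of smallest p; named listed genes were those past the threshold; for likeness, the 2 of highest r. A few genes that these rules would name are not reported here. Members, lists and rules were chosen with earlier results of these data known. Exons come from GENCODE release 21 for mouse. Of 55401 gene identifiers, 54349 matched a symbol, and Etl4 was matched without its version number.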

Additional observations from a re-analysis of the deposited data

Results flagged for a closer look

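For Nfix a circle and the sum that contains it stood out because the genotype difference in whole-cell RNA differed from that in the cytoplasm. For circNfix exon 2 the difference was 10.23 ± 2.29 (SE) on the log2 scale (edgeR interaction, adjusted p = 0.0049), and for all circles of Nfix summed it was 6.88 ± 0.61 (adjusted p = 7.57e-05). Both were lower in KO in the cytoplasm in 2 of 2 libraries and higher in KO in the whole cell in 2 of 2. For circNfia exons 8 to 9 the difference was -8 with an SE of 1.11 (adjusted p = 0.00023), and for all circles of Nfia summed -3.2 with an SE of 0.54 (adjusted p = 0.00196), KO being higher in the cytoplasm and lower in the whole cell in every library. Of all circRNAs 7.41% and of all host genes 16.4% passed this test, which was added after the values had been seen. The cause was not tested.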

How the results depend on the processing

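Counts of family members past an adjusted p of 0.05 depended on the setting where reads were few. In the cytoplasm 6 of 12 circles passed, but 1 without any scaling and 1 with DESeq2. When a library was left out, only 8 or 9 of the 12 had enough reads to be tested. In the whole cell 7 circles were tested, and 4 to 6 when a library was left out. Of the 7, 0 passed, but 2 when scaled by the total of circRNA reads, 1 by DESeq2 and 2 in a fit with replicate block. The 2 were circNfix exon 2 (adjusted p = 1.87e-08 with the block) and circNfia exons 8 to 9 (0.0264). Of the sums per gene, 1 passed in the cytoplasm, but 2 without any scaling, 0 with DESeq2 and 0 with the block, where Nfia had an adjusted p of 0.0598, and 1 in the whole cell, but 0 without any scaling. With the block circNfia exons 3 to 6 also lost its cytoplasmic call (0.0643), and no other call of a member changed. The replicate numbers did not deviate together in any fraction (correlations -0.013, -0.004 and 0.005). With 2 groups of 2 each fraction gives 1 correlation, which cannot settle whether samples were paired. For the added test of the fractions, 2 circles passed, and 0 to 3 when a library was left out. For mRNA 2 to 3 of 4 passed when a library was left out.

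The family's share in the nucleus had no stable sign. Its difference of -0.0203 percentage points became 0.175 without the most abundant member and ran from -0.718 to 0.678 when a library was left out, and the reads as deposited differed by 15.0. Without the most abundant member the difference became 0.0523 in the cytoplasm and -0.0177 in the whole cell. Without any scaling the nuclear log2 fold change turned to 0.37 for circNfix exon 2 and to 0.47 for the sum of Nfix. When a library was left out these ran from -1.64 to 1.22 and from -1.55 to 1.44, and the Nuc/Cyto value of circNfix exon 2 from -0.37 to 2.87. In the whole cell circNfib exons 3 to 6 ran from -1.19 to 0.06, circNfix exons 3 to 8 from -0.62 to 0.22 and circNfix exons 2 to 8 from -0.41 to 1.24, and Nfix mRNA ran from -0.01 to 0.09. The cause was not tested.

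Calls over all circRNAs ranged from 0 to 72 in the nucleus (66 as reported), 879 to 5252 in the cytoplasm (4768), 0 to 2054 in the whole cell (0) and 0 to 1101 for the added test (1018), and over all genes for mRNA from 6143 to 7696 (7151). Without any scaling, which moved the cytoplasmic median from -0.25 to -0.77, 837 circRNAs were higher and 1516 lower against 2671 and 2097, and 385 host genes higher and 773 lower against 957 and 772. Depth limits the nucleus most, and within the family no circle other than circNfix exon 2 passed 22 reads in a library.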
